A study of Mus musculus with 15 samples.

Results

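Chemokines, colony-stimulating factors (CSFs) and interleukins are secreted signalling proteins, and their transcripts were followed here in mouse embryonic stem cells. The set held every non-control array probe whose RefSeq accession belongs to a gene named Ccl, Cxcl or Csf with a number, receptors left out, together with Cx3cl1, Xcl1, Il1a, Il1b, Il6, Il11, Il33 and Tnf. This gave 52 probes for 43 genes, out of 28331 probes with a symbol for 21368 genes and 55681 non-control probes in all. Total RNA was labelled with Cy3 and hybridised to 15 single-colour Agilent arrays, 3 for each of 5 groups. The comparisons ask what the loss of a gene changes in these cells, and what induction of Map3k3, a kinase upstream of MAP kinase and NF-kB signalling, changes in cells that lack that gene, which the labels call Nat1.

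In 2 of the groups a tet-inducible transgene was switched on in Nat1-null cells with doxycycline (Dox): Map3k3, or the fluorescent protein EGFP as the control transgene. The next group was the Map3k3 line kept without Dox, the fourth was Nat1-null cells with no transgene named, and the fifth was wild-type cells. All transgenic groups thus carry the null genotype as well. The labels say that cells were grown in standard medium on gelatin-coated plates. The sources used here do not give the strain, the dose and duration of Dox, or whether a line is 1 clone. The labels number the samples of a group but do not call them separate cultures, so p-values here cover the spread among the 3 samples of a group, which may be technical. The gene called Nat1 is now named Eif4g2 and encodes a translation initiation factor related to eIF4G. Its level was 1.71 ± 0.195 in null cells and 4.31 ± 0.146 in wild-type cells (log2 signal, SD, n = 3 each), and it fell 6.06-fold (limma, adjusted p = 2.32e-08). The Map3k3 probe was not called higher with Dox (log2 difference 0.18, adjusted p = 0.236 in limma against no Dox). No source used here says whether the transgene carries the sequence of that probe, so its reading is no test of the induction.

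Chemokines act on receptors of the G protein-coupled class, mostly on leukocytes, and guide where those cells migrate. They are classed by the spacing of their first cysteines as CC, CXC, CX3C and XC chemokines. CSFs drive the growth and maturation of myeloid cells, and interleukins carry signals between immune and stromal cells. Many of these genes are nearly silent at rest and are switched on through NF-kB and AP-1, transcription factors that kinase cascades activate.

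The stretches upstream of the genes are shown first because the ligands described below include known NF-kB and AP-1 targets. The RefSeq promoter table (build GRCm38.p6) held an entry for 32 of the 43 genes. It held 6 of the 9 genes that were later called higher with Map3k3 against both controls. Each line gives the 200 bases before a transcription start, 5′ to 3′ on the strand of the gene. Capitals mark matches, on either strand, to the kappa B consensus, to the AP-1 motif TGANTCA or to the TATA motif TATAAA, and a run of capitals may hold overlapping matches. The first 6 genes were called higher with Map3k3 against both controls. Cxcl2 was above background on no array and Cxcl12 only on the wild-type arrays, and both stand for comparison.
Csf1, chr3:107760470-107760669, minus strand: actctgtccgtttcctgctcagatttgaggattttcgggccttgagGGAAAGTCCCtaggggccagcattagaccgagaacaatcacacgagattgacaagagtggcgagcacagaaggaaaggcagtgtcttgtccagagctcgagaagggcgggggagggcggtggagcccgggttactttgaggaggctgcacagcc
Csf2, chr11:54249900-54250099, minus strand: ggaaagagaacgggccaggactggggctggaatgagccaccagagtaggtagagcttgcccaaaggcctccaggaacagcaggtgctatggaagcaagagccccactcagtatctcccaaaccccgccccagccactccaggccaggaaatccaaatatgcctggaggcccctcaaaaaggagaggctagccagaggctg
Il11, chr7:4778142-4778341, minus strand: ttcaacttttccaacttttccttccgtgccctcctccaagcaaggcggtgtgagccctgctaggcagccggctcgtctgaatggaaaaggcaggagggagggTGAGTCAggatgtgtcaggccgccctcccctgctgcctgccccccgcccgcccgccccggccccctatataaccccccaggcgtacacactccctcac
Il33, chr19:29945590-29945789, plus strand: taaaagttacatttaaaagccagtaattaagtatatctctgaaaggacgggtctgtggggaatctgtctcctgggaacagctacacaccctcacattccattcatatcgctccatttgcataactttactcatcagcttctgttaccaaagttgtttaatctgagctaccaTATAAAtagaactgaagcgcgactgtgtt
Cxcl1, chr5:90891045-90891244, plus strand: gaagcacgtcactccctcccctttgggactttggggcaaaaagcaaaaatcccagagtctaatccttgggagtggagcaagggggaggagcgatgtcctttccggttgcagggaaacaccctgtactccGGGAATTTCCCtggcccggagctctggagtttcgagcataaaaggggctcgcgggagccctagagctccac
Cxcl10, chr5:92348890-92349089, minus strand: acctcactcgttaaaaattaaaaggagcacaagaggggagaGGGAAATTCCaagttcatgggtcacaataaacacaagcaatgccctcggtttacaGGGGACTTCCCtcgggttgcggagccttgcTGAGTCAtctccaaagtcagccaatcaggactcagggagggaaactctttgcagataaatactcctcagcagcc
Cxcl2, chr5:90903699-90903898, plus strand: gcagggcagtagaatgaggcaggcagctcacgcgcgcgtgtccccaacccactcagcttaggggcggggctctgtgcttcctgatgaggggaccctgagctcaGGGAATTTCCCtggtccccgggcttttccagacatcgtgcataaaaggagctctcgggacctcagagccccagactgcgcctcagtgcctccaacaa
Cxcl12, chr6:117168335-117168534, plus strand: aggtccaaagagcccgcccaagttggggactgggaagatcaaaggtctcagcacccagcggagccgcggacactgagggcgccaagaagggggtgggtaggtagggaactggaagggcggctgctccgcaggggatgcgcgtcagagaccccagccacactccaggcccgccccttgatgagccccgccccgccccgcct

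Csf1 had 1 kappa B match, starting 154 bases before the transcription start. Cxcl1 had 2 overlapping matches at 71 and 70 bases, which the sequence shows as 1 run of capitals. Cxcl10 had 3, starting 159, 104 and 103 bases upstream, and also an AP-1 match at 74 bases. The AP-1 match of Il11 lay 98 bases before 1 of its 2 listed starts, the one shown, and Il33 had a TATA match 29 bases before the start shown. No match to any of the 3 motifs was found before Csf2 or Cxcl12. Cxcl2, which was not measured above background, had the same pair of overlapping kappa B matches as Cxcl1, at 97 and 96 bases. In the full 300-base windows of the table, which run from upstream to just past the start, the kappa B consensus was found in 10 of the 32 member genes, AP-1 in 8 and TATA in 13. Of all 32851 promoter windows of that length, 8.46% held the kappa B consensus, 7.81% AP-1 and 13.6% TATA. These shares are by window and the member counts by gene. A gene with several listed starts had several windows in which to match, so the units are unlike. A match describes the letters and no more.

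Values below are log2 signal relative to the 75th percentile of the probes of the array. A value of 0 is thus a signal at that percentile, and 1 unit is a doubling. A probe counted as above background on an array where at least 1 in every 2 of its spots did so by the scanner software. The brightest passing probe stood for a gene, and levels of different probes are not compared. Of the 43 genes, 18 could be tested, because in 1 or more groups each was above background on all 3 arrays. Another 5 genes (Ccl8, Ccl9, Ccl20, Cxcl17 and Il1a) were above background only on single arrays. The other 20 were above background on no array: Ccl1, Ccl3, Ccl4, Ccl6, Ccl11, Ccl12, Ccl17, Ccl22, Ccl24, Ccl26, Ccl28, Csf3, Cxcl2, Cxcl3, Cxcl13, Cxcl15, Il1b, Il6, Tnf and Xcl1. The probes for Il1b and Tnf are printed 10 times on each array, and none of those spots was above background in any group. These 20 include the classical macrophage and neutrophil products Il1b, Il6, Tnf, Csf3, Cxcl2 and Ccl3.

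The number of genes above background on all 3 arrays was 12 in Map3k3 cells with Dox, 5 in EGFP cells with Dox, 7 in Map3k3 cells without Dox, 5 in null cells and 15 in wild-type cells. Over all 21368 genes the shares were 57.8%, 58.5%, 61.5%, 58.7% and 66.1% in the same order. The background itself differed by position on the slide. In slide row 1, which held the wild-type arrays, the Map3k3 arrays without Dox and 1 array each of Map3k3 and EGFP cells with Dox, the lowest signal above background was 21.9 to 24.4 units. In row 2, with the null arrays and the remaining arrays, it was 30.8 to 63.9 units. The highest limit of any array lay at -3.27 on the log2 scale. On all 3 arrays, 10 genes in Map3k3 cells with Dox stood above it, 5 in EGFP cells with Dox, 5 in Map3k3 cells without Dox, 5 in null cells and 12 in wild-type cells. Csf2 and Cxcl1 were not among the 10, nor Ccl7, Cxcl1 and Cxcl5 among the 12.

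**Figure D1:**
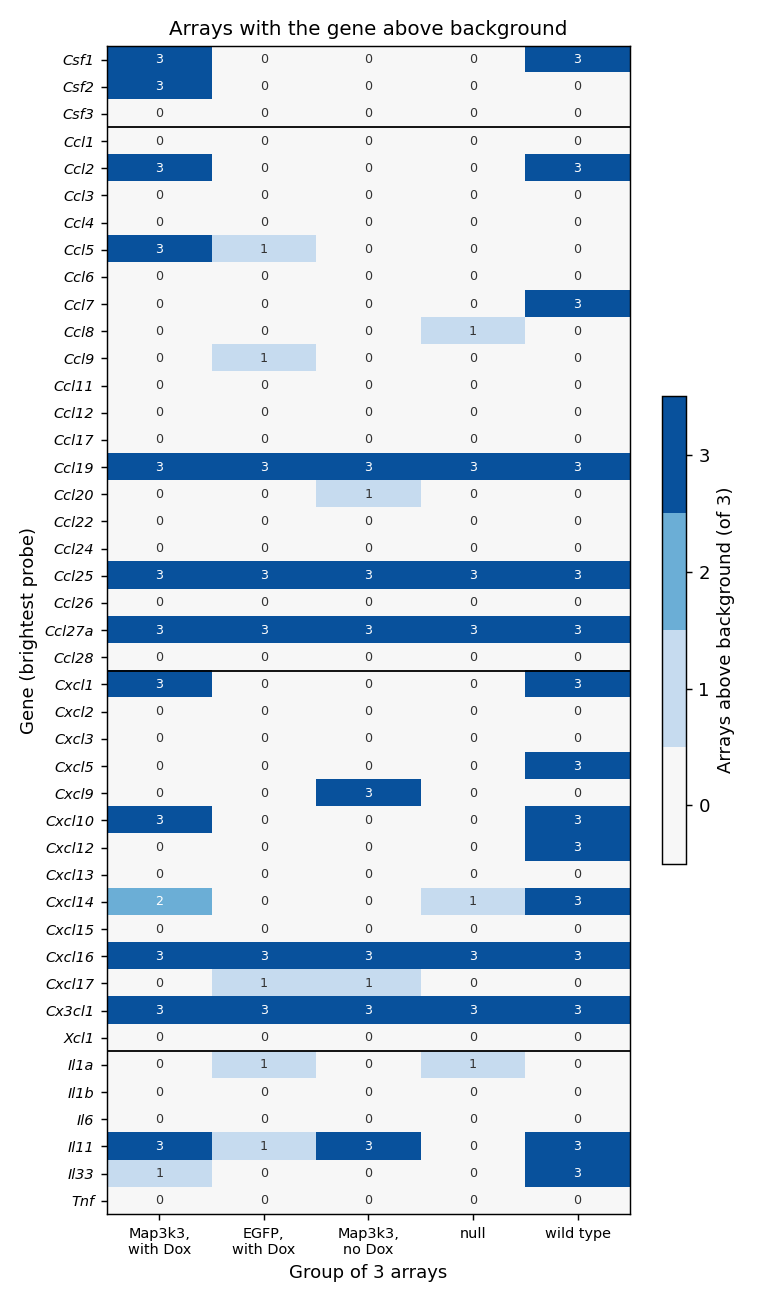
Number of arrays, of 3 per group, on which each of the 43 ligand genes was above background (rows: genes by brightest probe, with lines between CSFs, CC chemokines, other chemokines, and interleukins with Tnf; columns: groups). Filled cells gather in the columns of Map3k3 with Dox (12 genes at 3 of 3) and wild type (15 genes), while 20 rows are empty throughout.

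In Map3k3 cells with Dox, 9 ligand genes were higher than in both control groups: Csf1, Csf2, Il11, Il33, Ccl2, Ccl5, Cxcl1, Cxcl10 and Cxcl16. Genes were called in a limma model over all 15 arrays at an adjusted p under 0.05 (Benjamini-Hochberg over the 14443 genes tested) and at least 1.5-fold. Against the same cells without Dox, 11 of the 18 tested members were called, where 17.9% of all genes were, and 10 of them were higher (12.3% of all genes) and 1 lower (5.58%). Against EGFP cells with Dox, 9 were called, all higher, where 18% of all genes were called, 12.4% higher and 5.64% lower. Genes that passed only through the group where they are high had to differ, so these counts describe the 18 and are not a share of the ligands. Csf2 and Ccl5 passed only through the Map3k3 arrays with Dox, and Cxcl9 only through those without Dox. Their calls against these groups were thus largely set in advance, and their p-values below carry that limit. The median log2 difference over the 18 was 2.27 against no Dox and 1.76 against EGFP, where the median over all genes was -0.07 and -0.09. The 2 comparisons share the Map3k3 arrays with Dox.

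Csf1, the CSF that macrophages need to survive, was below background in both control groups and far above it with induced Map3k3. It read 0.36, 0.74 and 0.17 in Map3k3 cells with Dox, against -6.01, -5.95 and -6.57 in EGFP cells, -6.13, -6.82 and -6.52 in Map3k3 cells without Dox, -6.10, -6.07 and -5.90 in null cells and -0.69, -0.52 and -0.52 in wild-type cells. All 3 Dox-induced Map3k3 arrays lay above every other array, and in the 3 groups of low signal not 1 of the 10 spots of the probe was above background. Csf1 was at least 31.8-fold higher than without Dox (adjusted p = 3.8e-10 in limma) and at least 23.2-fold higher than in EGFP cells (adjusted p = 4.58e-10). A bound raises each low array to the lowest signal above background on that array. Both of its other probes moved the same way, at least 5.08-fold and 5.68-fold against no Dox. Csf2, a growth factor of granulocytes and macrophages, read -3.11, -0.84 and -3.47 in Map3k3 cells with Dox, against -5.92 to -6.43 in EGFP cells, -6.14 to -6.84 in Map3k3 cells without Dox, -5.96 to -6.15 in null cells and -6.39 to -6.53 in wild-type cells. It was above background in the Map3k3 cells with Dox alone, on 10, 10 and 7 of its 10 spots. Csf2 was at least 4.28-fold higher than without Dox (adjusted p = 6.39e-05 in limma) and at least 3.12-fold higher than in EGFP cells (adjusted p = 0.000128). Array 2 carried much of this: without it the log2 difference was 3.24 in place of 4.06 against no Dox and 2.87 in place of 3.69 against EGFP. Requiring every spot above background takes Csf2 out of the test. Csf3 was not above background anywhere.

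Il11, a cytokine of the Il6 family that acts through gp130, and the alarmin Il33 were the interleukins that rose. Il11 read 1.34, 2.66 and 1.23 in Map3k3 cells with Dox, against -2.53, -4.47 and -4.82 in EGFP cells, -3.92, -4.11 and -4.25 in Map3k3 cells without Dox, -4.55, -4.12 and -4.68 in null cells and -1.79, -1.94 and -2.29 in wild-type cells. The arrays with induced Map3k3 lay above all others, and EGFP array 1 stood apart from the other 2 of its group. Il11 was 57.2-fold higher than without Dox, where it was above background on all 3 arrays (log2 difference 5.84, SE 0.514, adjusted p = 4.12e-06 in limma). Those 3 readings lay close to the limits of their arrays (-4.56, -4.74 and -4.41), so the size of this fold is uncertain. With slide row as a term the log2 difference was 5.20. Against EGFP cells it was at least 42.8-fold higher (adjusted p = 5.07e-06), with a log2 difference of 5.68 that became 6.39 without EGFP array 1. Il33, which is stored in the nucleus until cells are damaged, read -4.28, -4.05 and -4.64 in Map3k3 cells with Dox, against -5.97 to -6.57 in EGFP cells, -6.60 to -6.89 in Map3k3 cells without Dox, -6.08 to -6.23 in null cells and -1.63 to -1.87 in wild-type cells. Its Dox-induced arrays stood between the low groups and wild type without overlapping either, but only 1 of the 3 was above background. Il33 was called higher than without Dox (log2 difference 2.41, adjusted p = 4.3e-07 in limma). It was also called against EGFP cells (1.93, adjusted p = 2.81e-06). No fold is given against either control, because the induced signals are too near background.

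Ccl2 and Ccl5 were the CC chemokines that rose. Ccl2, which attracts monocytes, read -0.59, 0.60 and -0.95 in Map3k3 cells with Dox, against -4.82, -5.33 and -4.81 in EGFP cells, -4.50, -5.17 and -5.08 in Map3k3 cells without Dox, -5.30, -5.20 and -4.95 in null cells and -2.11, -1.72 and -1.73 in wild-type cells. The induced arrays lay above wild type and the wild-type arrays above the rest. Ccl2 was at least 18.8-fold higher than without Dox (adjusted p = 7.69e-07 in limma) and at least 13.9-fold higher than in EGFP cells (adjusted p = 7.03e-07). Ccl5, which attracts T cells and monocytes, read -0.48, -0.16 and -0.41 in Map3k3 cells with Dox, against -4.69, -5.16 and -4.13 in EGFP cells, -4.82, -4.83 and -4.53 in Map3k3 cells without Dox, -5.14, -5.15 and -4.86 in null cells and -4.96, -4.86 and -4.57 in wild-type cells. Here wild type was as low as the null cells, and of those 12 arrays only EGFP array 3 was above background. Ccl5 was at least 18.6-fold higher than without Dox (adjusted p = 2.7e-08 in limma) and at least 12.7-fold higher than in EGFP cells (adjusted p = 3.03e-08). In the RefSeq gene order Ccl2 is followed on chromosome 11 by Ccl7, Ccl11, Ccl12, Ccl8 and Ccl1, and Ccl5 by Ccl9, Ccl6, Ccl3 and Ccl4. Of these 9 neighbours none was above background on a Map3k3 array with Dox.

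Cxcl1, Cxcl10 and Cxcl16 were the CXC chemokines that rose against both controls. Cxcl16, which is made as a membrane protein and binds Cxcr6, was the one of these with signal above background on all 15 arrays, so its folds are measured. It read 1.33, 1.55 and 1.61 in Map3k3 cells with Dox, against -1.78, -1.47 and -1.04 in EGFP cells, -1.41, -1.35 and -1.01 in Map3k3 cells without Dox, -0.94, -1.40 and -0.59 in null cells and 1.12, 1.10 and 0.95 in wild-type cells. The induced arrays and the wild-type arrays lay apart from the 3 low groups. Cxcl16 was 6.76-fold higher than without Dox (log2 difference 2.76, SE 0.211, adjusted p = 1.26e-06 in limma) and 7.63-fold higher than in EGFP cells (2.93, adjusted p = 7.75e-07). Cxcl10, which interferon induces and which attracts T cells, read -1.50, -0.31 and -1.05 in Map3k3 cells with Dox, against -5.75 to -6.28 in EGFP cells, -6.33 to -6.65 in Map3k3 cells without Dox, -5.85 to -5.99 in null cells and -0.83, -0.66 and -0.70 in wild-type cells. Induced and wild-type arrays overlapped and stood above background, and the other 9 arrays did not. It was at least 12.3-fold higher than without Dox (adjusted p = 7.4e-09 in limma) and at least 8.95-fold higher than in EGFP cells (adjusted p = 1.57e-08).

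Cxcl1, a neutrophil attractant, was dimmer. It read -3.59, -2.65 and -3.34 in Map3k3 cells with Dox, against -6.07 to -6.68 in EGFP cells, -5.50 to -6.99 in Map3k3 cells without Dox, -6.18 to -6.34 in null cells and -4.46, -4.45 and -4.40 in wild-type cells. It was above background in the induced and the wild-type cells alone, with the induced arrays higher. Cxcl1 was at least 2.60-fold higher than without Dox (adjusted p = 1.67e-05 in limma) and at least 1.90-fold higher than in EGFP cells (adjusted p = 1.95e-05). On chromosome 5 its coding neighbours Cxcl15 and Cxcl2 and the next gene, Cxcl3, were above background on no array. Cxcl14 read -3.38, -2.80 and -4.13 in Map3k3 cells with Dox, against -4.47 to -5.52 in EGFP cells, -4.98 to -6.21 in Map3k3 cells without Dox, -5.03, -4.53 and -1.39 in null cells and -1.73 to -2.07 in wild-type cells. The induced arrays lay between the arrays without Dox and wild type, and 2 of the 3 were above background. Cxcl14 was called against no Dox (log2 difference 2.13, adjusted p = 0.041 in limma) and missed the threshold against EGFP (1.59, adjusted p = 0.112). No fold is given, since 1 induced array was itself below background. The call against no Dox was lost without any 1 of 4 arrays (adjusted p of 0.0779 to 0.127). The only member called lower was Cxcl9, an interferon-induced chemokine. It read -4.93, -5.52 and -5.15 in Map3k3 cells with Dox, against -4.34, -5.03 and -4.64 in EGFP cells, -4.29, -4.48 and -4.21 in Map3k3 cells without Dox, -4.38, -4.88 and -4.43 in null cells and -5.58, -5.68 and -5.14 in wild-type cells. Only the arrays without Dox were above background, and they lay above the induced arrays. Its log2 difference was -0.87 (adjusted p = 0.00651 in limma), with signals so near background that no fold is given, and with slide row as a term the adjusted p was 0.0579.

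**Figure D2:**
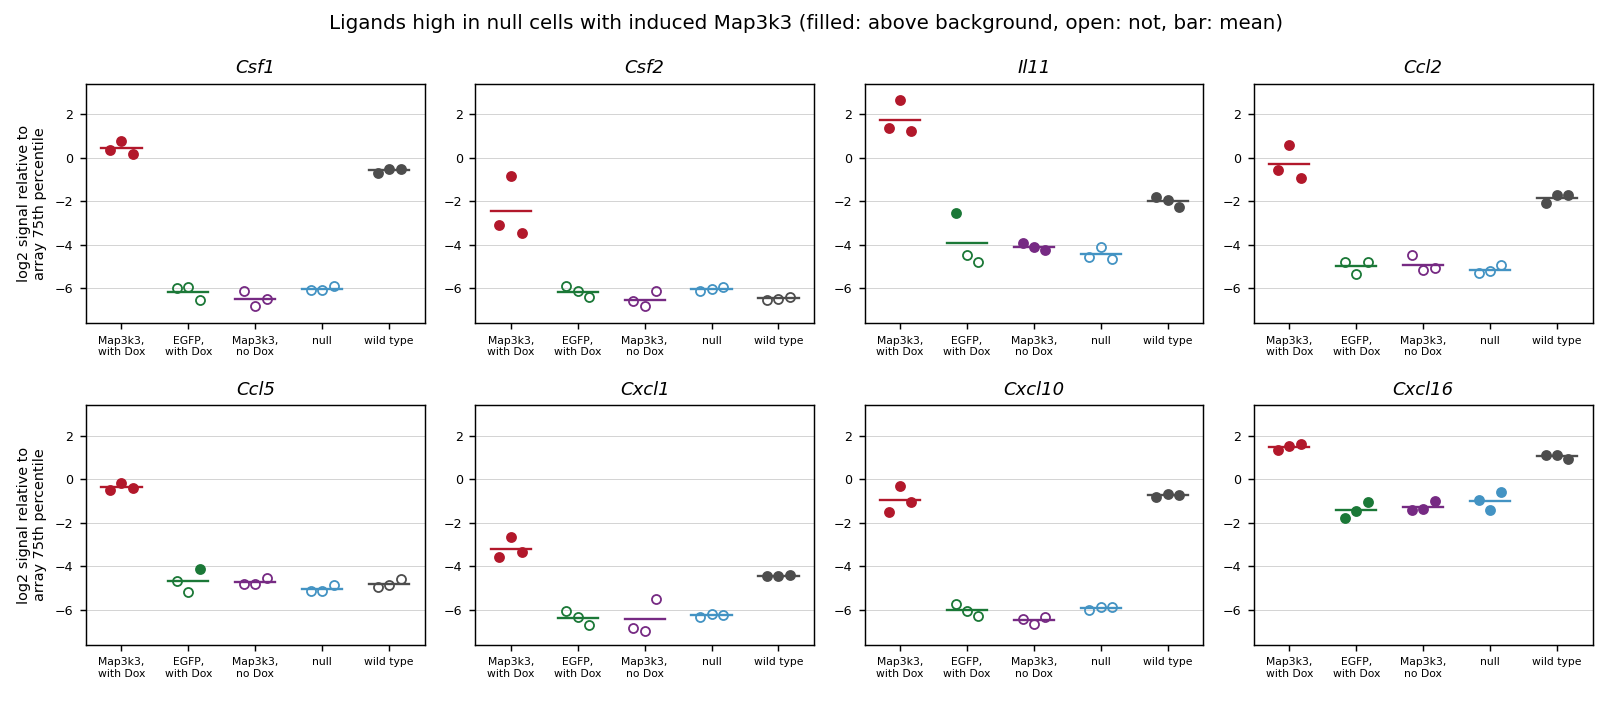
Log2 signal, with 0 at the array's 75th percentile, for 8 ligands in each array (points, filled where above background, open where not; bars are means of 3 arrays; groups from Map3k3 with Dox at left to wild type at right). Map3k3 arrays with Dox lie above the EGFP, no-Dox and null arrays in every panel, while Csf2 and Ccl5 are also low in wild type.

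One array of the induced group was regularly the highest. Map3k3 array 2 with Dox held the highest value of its group in 9 of the 10 members called higher against no Dox, and array 3 in the other one. The same array had the lowest share of probes above background, 42.7%, and the highest limit for it, 63.9 units. Without it, the 9 members called higher against both controls were still called in both comparisons. Both groups of Map3k3 arrays lay on the same slide, with 2 of the 3 EGFP arrays. Slide row differed: within row 1, with 1 Map3k3 array with Dox and 3 without, all 11 called members kept their direction. Restricting to that slide leaves the comparison with no Dox unchanged, so it is no check there. Against the 2 EGFP arrays on that slide, 9 of 9 called members kept their direction.

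In Nat1-null cells 10 of the ligands were lower than in wild-type cells. Between null and wild-type cells, 11 of the 18 members were called, where 37.7% of all genes were, with 10 lower (20.5% of all genes) and 1 higher (17.2%). The 10 that fell were Csf1, Il11, Il33, Ccl2, Ccl7, Cxcl1, Cxcl5, Cxcl10, Cxcl12 and Cxcl16. The median log2 difference of the 18 was -1.93, and over all genes it was 0.07. Ccl7, Cxcl5, Cxcl12, Cxcl14 and Il33 passed only through the wild-type arrays, so their lower readings in null cells were largely set in advance. These counts and the median therefore describe the 18 and are not a share of the ligands. Both groups were on the same slide, but all null arrays were in row 2 and all wild-type arrays in row 1. With row as a term, estimated through the transgenic groups that span both rows, all 11 stayed called. Over 1.5 times growth was seen in 5 differences, Ccl7 to -4.04, Cxcl5 to -3.34, Il11 to -3.40, Cxcl10 to -5.78 and Cxcl12 to -6.28. Ccl7, Cxcl5 and Cxcl12 were below background on every array of the groups that set this term. For Il11 those groups include EGFP array 1, which stood apart at -2.53. The growth is therefore not read as a larger difference between null and wild-type cells. No label states that these wild-type cells were the parents of the null cells, so effects of the deletion and of other line differences cannot be told apart.

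With the per-array values given above, Csf1 fell at least 10.7-fold in null cells (adjusted p = 1.14e-09 in limma) and Cxcl10 at least 9.62-fold (adjusted p = 5.78e-09). Il33 fell at least 4.69-fold (adjusted p = 1.15e-09), Ccl2 at least 4.41-fold (adjusted p = 3.68e-06) and Il11 at least 3.97-fold (adjusted p = 0.00129). Cxcl16 fell 4.09-fold, with both groups above background (log2 difference -2.03, SE 0.211, adjusted p = 4.78e-06). Cxcl1 was called lower too (log2 difference -1.82, adjusted p = 0.000539 in limma), but its wild-type signal is too close to background for a fold. The groups did not overlap in any of the 10. The same held for every called member in every comparison, so it adds nothing to the calls, and no share over all genes is given. Csf2 (log2 difference 0.43, 95% interval -0.67 to 1.52) and Ccl5 (-0.25, -0.72 to 0.22) were below background in both groups.

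Of the 10 ligands that were lower in null cells, 7 were among those higher with Map3k3, and 3 were called against neither control: Cxcl12, Ccl7 and Cxcl5. Cxcl12, which holds blood and germ cell precursors in place through Cxcr4, read -6.51, -5.10 and -5.76 in Map3k3 cells with Dox, against -5.71, -5.52 and -6.28 in EGFP cells, -4.53, -6.62 and -6.34 in Map3k3 cells without Dox, -5.97, -5.82 and -5.85 in null cells and -0.50, -0.59 and -0.32 in wild-type cells. The 4 null-genotype groups overlapped, all below background, far under the wild-type arrays. It was at least 11.5-fold lower in null cells than in wild type (adjusted p = 1.13e-06 in limma). Induced Map3k3 left a log2 difference of 0.04 against no Dox (95% interval -0.99 to 1.07), and below background such an interval bounds the signal rather than the transcript. The second Cxcl12 probe was also lower in null cells, at least 1.37-fold, and not called with Map3k3.

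Ccl7, the neighbour of Ccl2 and also a monocyte attractant, read -6.69, -3.95 and -5.96 in Map3k3 cells with Dox, against -5.94 to -6.48 in EGFP cells, -6.56 to -6.85 in Map3k3 cells without Dox, -6.03 to -6.20 in null cells and -3.40, -2.96 and -3.09 in wild-type cells. Map3k3 array 2 with Dox was higher than the other 2 of its group, but it was below the background limit of that array. Ccl7 was at least 1.80-fold lower in null than in wild-type cells (adjusted p = 0.000234 in limma). Its log2 difference with Map3k3 was 1.16 against no Dox (95% interval 0.07 to 2.24, adjusted p = 0.0832). Cxcl5, a neutrophil attractant like Cxcl1, read -5.25 to -6.60 in Map3k3 cells with Dox, against -5.89 to -6.40 in EGFP cells, -6.45 to -6.77 in Map3k3 cells without Dox, -5.63 to -6.09 in null cells and -3.85, -3.02 and -3.00 in wild-type cells. Only the wild-type arrays were above background. It was at least 1.63-fold lower in null cells (adjusted p = 1.41e-05 in limma), and the log2 difference with Map3k3 was 0.68 against no Dox (95% interval 0.00 to 1.35, adjusted p = 0.103).

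**Figure D3:**
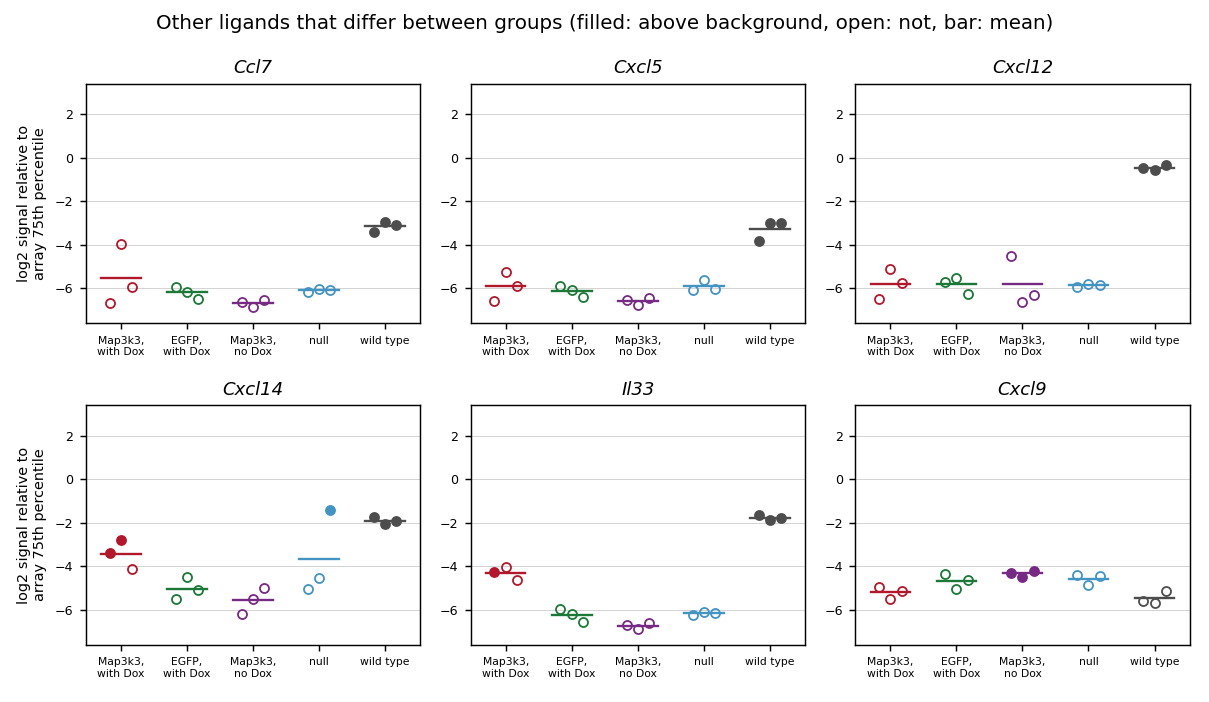
Log2 signal, with 0 at the array's 75th percentile, for 6 further ligands in each array (points, filled where above background, open where not; bars are means of 3 arrays; groups as labelled, Map3k3 with Dox at left, wild type at right). Ccl7, Cxcl5 and Cxcl12 are above background in wild type alone, and Il33 with Map3k3 lies between the low groups and wild type.

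Cxcl14, which skin and other epithelia make, was not called in null cells (log2 difference -1.74, adjusted p = 0.0611 in limma), with null array 3 at -1.39, above the wild-type arrays. Cxcl9 was the 1 member called higher in null cells (log2 difference 0.90, adjusted p = 0.00277), at -4.56 ± 0.27 in null and -5.47 ± 0.29 in wild-type cells (SD, n = 3 each). Neither group was above background, so no fold is given, and its second probe was above background on no array. The remaining 4 tested members, Ccl19, Ccl25, Ccl27a and Cx3cl1, were above background on all 15 arrays and were called in none of the 6 comparisons. Ccl19 and Ccl25 guide lymphocytes and thymocytes, Ccl27a draws T cells to skin, and Cx3cl1 is a membrane-bound chemokine. Cx3cl1 ranged from -0.16 to -0.49 in Map3k3 cells with Dox, from -0.49 to -1.06 in EGFP cells, from -0.31 to -0.85 in Map3k3 cells without Dox, from -0.10 to -0.59 in null cells and from -0.40 to -0.45 in wild-type cells, so the groups overlapped. Its log2 difference between null and wild type was 0.04 (95% interval -0.36 to 0.43). For Ccl25, the brighter probe was slightly lower in null cells (-0.33, adjusted p = 0.00357 in limma, under the 1.5-fold minimum), but its second probe was called 2.02-fold higher, so the probes disagree. The mouse genome holds near copies of Ccl19 and Ccl27a, and signal from those copies cannot be told apart from these genes.

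Set against wild-type cells, null cells with induced Map3k3 had some of these ligands higher, some at a similar level and some far lower. Of the 18 members 10 were called, where 38.2% of all genes were, with 6 higher (18.3% of all genes) and 4 lower (19.9%). Members that passed only through the induced arrays (Csf2 and Ccl5) or only through the wild-type arrays had to differ, so these counts too describe the 18 alone. This comparison shares its arrays with those above. Ccl5 was at least 19.1-fold higher than in wild type (adjusted p = 9.39e-09 in limma), Il11 13.4-fold (adjusted p = 4.81e-05) and Csf2 at least 4.38-fold (adjusted p = 2.32e-05). Ccl2 was 2.90-fold higher (adjusted p = 0.00154), Cxcl1 2.37-fold (adjusted p = 0.00681) and Csf1 2.00-fold (adjusted p = 0.000972). For Cxcl1 the wild-type readings lay close to the limits of their arrays (-4.60, -4.64 and -4.57), so the size of its fold is uncertain. The induced arrays did not overlap the wild-type arrays in any of these 6, which again held for every called member and adds nothing to the calls. Cxcl10 (log2 difference -0.22, 95% interval -0.73 to 0.28) and Cxcl16 (0.44, -0.02 to 0.91) were not called.

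The 4 lower than in wild type were Cxcl12 (at least 10.8-fold, adjusted p = 1.27e-06 in limma), Il33 (at least 4.12-fold, adjusted p = 8.28e-08), Ccl7 (at least 1.69-fold, adjusted p = 0.00118) and Cxcl5 (at least 1.53-fold, adjusted p = 1.39e-05). Without Map3k3 array 2 the log2 difference of Ccl7 was -3.18 in place of -2.38, and that of Csf2 3.19 in place of 4.00. No slide held both groups, so this comparison also crosses slides. With slide as a term, estimated through the EGFP arrays, Csf1 (log2 difference 0.40, adjusted p = 0.343) and Cxcl1 (0.76, adjusted p = 0.362) were no longer called. Il11 stood at 2.43 in place of 3.75 (adjusted p = 0.0411). That term sets EGFP array 3 against EGFP arrays 1 and 2, which also differ from it in slide row. Csf1 and Cxcl1 were below background on every EGFP array, and Il11 was above it only on EGFP array 1. These shifts therefore cannot decide whether the slide matters for the 3 genes. Cxcl1 was also lost with slide row as a term (0.89, adjusted p = 0.0765).

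**Figure D4:**
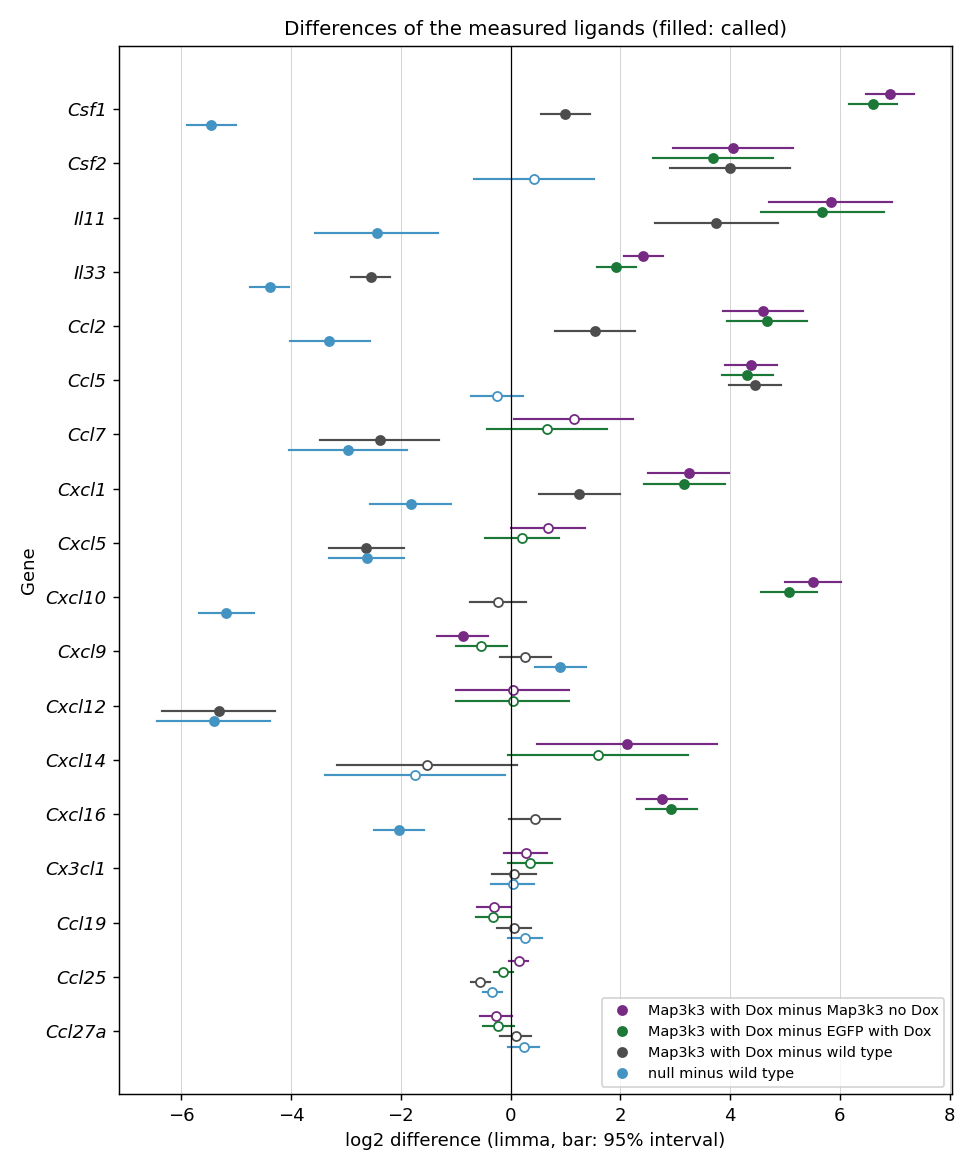
Log2 differences of the 18 tested ligands in 4 comparisons (points, filled where called; bars are 95% intervals of the limma fit; x axis in log2 units, y axis genes). Both comparisons of Map3k3 with Dox against a control lie right of 0 for Csf1, Csf2, Il11, Il33, Ccl2, Ccl5, Cxcl1, Cxcl10 and Cxcl16, and the filled points of null minus wild type lie left of 0 for 10 genes and right of 0 for Cxcl9.

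No ligand was called between a control transgene group and null cells. Between Map3k3 cells without Dox and null cells limma called 0 members and 0% of all genes, with 5 members and 2084 genes at an unadjusted p under 0.05. These 2 groups lay on different slides and in different slide rows, so slide, row and line cannot be told apart in this comparison. Between EGFP cells with Dox and null cells it called 0 members and 0.00692% of all genes, with 0 members and 1044 genes at an unadjusted p under 0.05. For Csf1 the log2 difference from null cells was -0.15 in EGFP cells (95% interval -0.59 to 0.29) and -0.47 in Map3k3 cells without Dox (-0.91 to -0.03). Csf1 was below background in all of these groups, so both intervals bound the signal rather than the transcript. For Cxcl16, above background in all groups, it was -0.45 in EGFP cells (-0.91 to 0.01) and -0.28 in Map3k3 cells without Dox (-0.74 to 0.18).

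The receptors for these ligands were read beside them. Of 23 chemokine receptors 6 passed the filter, and 1 of them, Ackr3, a scavenging receptor for Cxcl12, was called with Map3k3 against each control, where 17.9% and 18% of all genes were. Ackr3 was 7.66-fold higher than without Dox (adjusted p = 0.000388 in limma) and 7.96-fold higher than in EGFP cells (adjusted p = 0.000319), at 1.86 ± 0.502 in Map3k3 cells with Dox, -1.13 ± 0.662 in EGFP cells and -1.08 ± 0.683 without Dox (SD, n = 3 each). Cxcr4, the signalling receptor of Cxcl12, was not called there (log2 difference -0.67, adjusted p = 0.369 against no Dox). In null cells 3 of the 6 were called, where 37.7% of all genes were: Ccr7, the receptor of Ccl19, was lower (at least 2.59-fold, adjusted p = 0.000158), as was Ccr8 (1.62-fold, adjusted p = 0.00904), and Ccr4 was higher (at least 3.09-fold, adjusted p = 0.00247). Of 14 receptors of CSFs, interleukins and Tnf 13 passed, and with Map3k3 1 was called higher and 1 lower in each of the comparisons with a control, 2 of 13 beside the same shares of all genes. The higher one was the decoy receptor Il1r2, below background on all of those arrays, and the lower one Csf2rb2 (1.76-fold against no Dox, adjusted p = 0.00649). Csf1r, the Csf1 receptor, was above background in every group and differed by -0.03 with Map3k3 against no Dox (adjusted p = 0.742), and Il6st, which encodes gp130, by -0.11 (adjusted p = 0.151). In null cells 3 of the 13 were called: the Il6 receptor gene Il6ra was 1.99-fold higher than in wild type (adjusted p = 0.00278 in limma), Il1r2 at least 3.88-fold lower (adjusted p = 5.32e-06) and the Tnf receptor gene Tnfrsf1b at least 1.63-fold lower (adjusted p = 0.00065).

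Regulators known to act on these genes read as follows. Of all genes, 12.3% were higher and 5.58% lower with Map3k3 against no Dox, and 12.4% were higher against EGFP cells. Between null and wild-type cells, 17.2% were higher and 20.5% lower in null cells. No test set these short lists against those shares. Of 8 AP-1 genes, 6 were higher with Map3k3 than without Dox and 5 than in EGFP cells, with a median log2 difference of 1.48 against no Dox. Fosl1 was 10.7-fold higher than without Dox (adjusted p = 2.11e-05 in limma), Atf3 7.36-fold (adjusted p = 1.41e-06) and Fosl2 6.59-fold (adjusted p = 0.000156). In null cells 6 of the 8 were lower than in wild type, Atf3 by 3.28-fold (adjusted p = 3.15e-05). Of 9 tested genes for NF-kB subunits and inhibitors, 2 were higher with Map3k3 than without Dox and 3 than in EGFP cells, among them Rela (1.53-fold, adjusted p = 0.00841 against no Dox) and Nfkb2 (1.51-fold, adjusted p = 0.00201). In null cells 5 of those 9 were higher than in wild type, Nfkbie 4.65-fold (adjusted p = 5.68e-06) and Nfkb1 2.81-fold (adjusted p = 1.81e-07). Tnfaip3, an inhibitor of NF-kB signalling that NF-kB induces, was 6.29-fold higher with Map3k3 than without Dox (adjusted p = 8.94e-05) and 2.41-fold lower in null than in wild-type cells (adjusted p = 0.00651). It belongs to 12 genes for inhibition, processing and mRNA decay of cytokines, of which 10 passed, with 2 higher and 1 lower against no Dox. In null cells 4 of those 10 were higher than in wild type, and Tnfaip3 was the only 1 called lower.

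Markers of other cell types were read beside these values, since several of the ligands are also made by fibroblasts, blood cells or epithelia. Beside the counts here, 12.3% of all genes were higher and 5.58% lower with Map3k3 against no Dox. In null cells 17.2% of all genes were higher and 20.5% lower than in wild type. All 9 stem cell markers were above background on every array, and their summed signal, in multiples of the array's 75th percentile, was 909 to 959 in Map3k3 cells with Dox, 1170 to 1200 in EGFP cells, 1160 to 1220 in Map3k3 cells without Dox, 1200 to 1260 in null cells and 701 to 750 in wild-type cells. Of these markers 3 were lower with Map3k3 than without Dox, and 6 higher in null than in wild-type cells. Of 12 fibroblast markers 9 were tested: 8 were lower in null than in wild-type cells, and with Map3k3 4 were higher and 1 lower against no Dox. Their summed signal was 13.3 to 18 in Map3k3 cells with Dox, 5.54 to 6.17 in EGFP cells, 5.36 to 6.79 in Map3k3 cells without Dox, 6.46 to 6.76 in null cells and 95.4 to 101 in wild-type cells. Pdgfra, Postn and Lum were above background on none of the wild-type arrays, and Postn, Dcn and Lum on none with induced Map3k3. The wild-type ligands that fell in null cells thus moved with fibroblast markers such as Col1a1 (54.4-fold lower, adjusted p = 1.52e-10 in limma), and the part of such cells in the result was not tested. In bulk RNA, fewer cells of a type and less RNA per cell cannot be told apart.

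For the next lists too, 12.3% of all genes were higher and 5.58% lower against no Dox, and 20.5% lower in null cells. Of 8 trophectoderm markers 7 were tested, and 6 of them were higher with Map3k3 than without Dox and 6 lower in null than in wild-type cells. Their summed signal was 327 to 389 in Map3k3 cells with Dox, 10.9 to 23 in EGFP cells, 11.9 to 23.3 in Map3k3 cells without Dox, 12.1 to 26.9 in null cells and 185 to 190 in wild-type cells. Their part in the ligand result was not tested either. Of 12 blood cell markers 6 were tested, with 1, Cd14, called higher against no Dox (2.77-fold, adjusted p = 0.00348 in limma), and their summed signal was 27.6 to 31.8 in Map3k3 cells with Dox, 34.9 to 38.4 in EGFP cells, 34.6 to 38.4 in Map3k3 cells without Dox, 32.4 to 38.2 in null cells and 17.1 to 19.2 in wild-type cells. Ptprc, the marker of all leukocytes, was above background on no array, and Lyz2 and Tyrobp on none with induced Map3k3 and none of wild type. Cd68 and Cd3e were above background in every group, and Cd68 was 3.26-fold higher in null than in wild-type cells (adjusted p = 6.33e-07 in limma). Against wild type, 2 of the 6 tested were higher in null cells (17.2% of all genes). With induced Map3k3, 3 were higher than in wild type (18.3%). Of 6 endothelial markers 3 were tested, with 1 lower against no Dox, and summed to 12.3 to 13.3 in Map3k3 cells with Dox, 13.2 to 13.7 in EGFP cells, 11.4 to 13.4 in Map3k3 cells without Dox, 12.2 to 13.1 in null cells and 10.5 to 12.3 in wild-type cells, with Cdh5 above background on no array.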

How the data were processed

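Total RNA of 15 samples was read on single-colour Agilent arrays with Feature Extraction 11.5.1.1, per the file headers. The deposited intensity per spot is the processed signal of that software, already background-corrected, with flags for signal well above background. The log2 values of the authors' deposited matrix were used as an alternative, and the sources used here do not say how they were normalised. They lay within 0.00704 log2 units of the values computed here for every probe, so this alternative is nearly the main setting again. Control spots and outlier flags were left out, spots of a probe were averaged, and the array's 75th percentile was subtracted after log2 (494.6 to 614.9 units). Symbols came from RefSeq through each probe's accession (GRCm38.p6). Probes above background on every array of 1 or more groups were kept (29782 probes, 14443 genes). One limma fit (limma 3.58.1, R 4.3.3) with 5 group means gave 10 residual degrees of freedom and 6 comparisons, tested on simulated data first. All 14 called members are described array by array. The members and gene lists were chosen with earlier results of these data known. Same-numbered samples deviated together (correlations of 0.154, 0.318 and 0.252 between Map3k3 cells with and without Dox, 0.101, 0.316 and 0.193 with EGFP cells), but not between null and wild-type cells (-0.028, 0.008 and 0.005). The number of arrays limits the precision.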

Additional observations from a re-analysis of the deposited data

How the results depend on the processing

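The 41 called differences of members were recomputed under all alternatives, giving 738 values. Of these, 721 kept direction and side of the threshold, 17 lost the call and 0 reversed. This tally holds values that could not change or could hardly do so. Dropping the fold minimum (41 values) cannot lose a call. The authors' values (41) lay within 0.00704 log2 units of the main ones. Slide as a term cannot move a difference between groups that lie on the same slide. With only probes above background on all 15 arrays (11849 genes tested), 1 member was called against no Dox, 1 against EGFP, 1 in null against wild-type cells and 0 in Map3k3 cells with Dox against wild type, since dim genes leave the test. With no filter the last comparison called 21 members, 16 higher and 5 lower, as genes below background enter the test. Leaving out single arrays gave 10 to 12 members against no Dox, 9 to 11 against EGFP, 11 to 12 in null against wild type, 10 to 11 in Map3k3 with Dox against wild type and 0 to 0 in the other comparisons. The replicate block, which treats same-numbered samples as pairs, gave 11, 9, 11, 10, 0 and 0 members and changed no member's call. Normexp background correction of median signals together with quantile normalisation, chosen after seeing the data, moved 34 differences by over 1.5 times, all toward 0. Against no Dox, Csf1 stood at 3.43 and Il11 at 4.19. This combination lost Il33 (0.54), Cxcl9 (-0.32) and Cxcl14 (0.57) against no Dox, Cxcl9 in null cells (0.18) and Cxcl1 against wild type (0.50). Normexp on mean signals was not run. Other losses were Cxcl14 against no Dox under quantile normalisation (adjusted p = 0.0535 in limma), no filter (0.0631), slide (0.0518) and slide row (0.121). The mean of a gene's probes moved 5 differences by over 1.5 times (Csf1 against no Dox 5.41). Signals near background limit Il33, Cxcl1, Cxcl5, Cxcl9 and Ccl7, and the fold of Il11 against no Dox.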

Other observations

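Some ligands stood above background on a single array of a group, each on a probe with 1 spot. Ccl9, a CC chemokine of myeloid cells, read -2.75 on EGFP array 1, with -6.34 as the highest of the other 2 arrays of that group. On the same array Il11 read -2.53, against -4.47 for the next. Null array 3 held 3 such ligands together: Cxcl14 at -1.39 (next -4.53), Il1a at -3.33 (next -5.98) and Ccl8 at -3.14 (next -4.63). Il1a, an alarmin cytokine, also read -2.86 on EGFP array 2 (next -4.51). Ccl20, an attractant of Ccr6-bearing lymphocytes, read -3.54 on array 1 of Map3k3 cells without Dox (next -6.75). None of these is a group difference.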
